A study of Homo sapiens with 6 samples.

Results

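Transcripts of the Hippo pathway and of its YAP/TEAD target genes were measured in DBTRG cells, an established human glioblastoma line, grown in soft gel in 3D or on a rigid dish in 2D. The set comprised 36 genes of the 58884 in the deposited table, selected by gene symbol, and each symbol matched a single row (CTGF is listed there as CCN2 and CYR61 as CCN1). The soft gel group and the rigid dish group each had 3 libraries of total RNA, all harvested after 5 days and all labelled wild type, with no drug or other agent named. Gel and dish differed in stiffness and in dimension at once, so the effects of these cannot be told apart, and all libraries came from 1 line. The labels do not say whether replicates were separate cultures, so p-values reflect only library-to-library variation, possibly technical. In bulk RNA, fewer cells that express a gene and less of its RNA per cell cannot be told apart.

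The Hippo pathway is a kinase cascade that restrains the coactivators YAP1 and WWTR1 (also called TAZ). MST kinases (STK3 and STK4) with the scaffold SAV1 activate LATS1 and LATS2, which act with MOB1 proteins and phosphorylate YAP1 and WWTR1, keeping them out of the nucleus. Unphosphorylated YAP1 and WWTR1 bind TEAD transcription factors and switch on targets such as CCN1, CCN2 and ANKRD1. Cells on stiff substrates, where they spread and build actin stress fibres, are known for nuclear YAP1 in many cell types. That control acts largely on the proteins, which RNA levels do not show.

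Libraries held 20911363 to 24135884 counts in soft gel and 23944278 to 25901499 on the rigid dish. The first principal component of log2 CPM (counts scaled to library size) carried 59.2% of the variance and split soft gel from rigid dish, and the second (17.3%) set rigid dish 1 apart (45.95, against -4.50 in rigid dish 2 and -24.82 in rigid dish 3). Of 8 markers of glioblastoma or neural stem cells, VIM and NES were expressed and lower in soft gel (log2 fold change -0.48 and -0.56), CD44 and SOX2 were expressed and higher (0.33 and 0.59), OLIG2 was listed at 0 in every library and GFAP averaged 0.843 ± 0.492 TPM (abundance scaled to length and library) in soft gel and 0.67 ± 0.306 TPM on the rigid dish (SD, n = 3 each). The remaining markers of that list, S100B (log2 fold change 0.999) and PROM1 (0.87), were not called. Endothelial and epithelial markers were under 1 TPM in every library. Fibroblast or pericyte markers summed to 3.11 to 4.70 TPM in soft gel and 3.28 to 5.63 TPM on the rigid dish, with COL1A1 (log2 fold change -1.92) and PDGFRB (-0.89) lower, LUM higher (1.02) and DCN listed at 0. Neuron markers summed to 4.69 to 8.14 TPM in soft gel and 8.07 to 10.7 TPM on the rigid dish, with no call. Among immune markers CD68 was higher in soft gel (39.0 ± 4.09 against 10.7 ± 1.65 TPM on the rigid dish), PTPRC was under 1 TPM in every library and AIF1 reached 1.37 TPM in soft gel 1. The summed immune markers, nearly all of it CD68, ranged from 35.4 to 43.8 TPM in soft gel and from 8.82 to 12 TPM on the rigid dish. Whether these markers bear on the results below was not tested.

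More of the Hippo and YAP/TEAD genes were lower than higher in soft gel. All 36 passed the low-count filter, and edgeR's quasi-likelihood test across 16098 genes called 12 lower and 1 higher at a Benjamini-Hochberg adjusted p below 0.05. That is 33.3% lower and 2.78% higher, against 13.2% lower and 15.4% higher among all tested genes. Among protein-coding genes that averaged 5 CPM or more (scaled by TMM), which 34 of the 36 did, 17.6% were lower and 14.8% higher. The genes called lower were TEAD4, AXL, AMOTL2, WWC1, FJX1, PTPN14, NF2, LATS2, STK4, MYOF, NUAK2 and YAP1, and the gene called higher was CRIM1. The median log2 fold change (soft gel over rigid dish) was -0.10 for the set and 0.05 for all tested genes. In 16 of the 36 genes every soft gel library lay below every rigid dish library and in 1 gene above, against 21.1% below and 23.5% above among all tested genes.

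**Figure D1:**
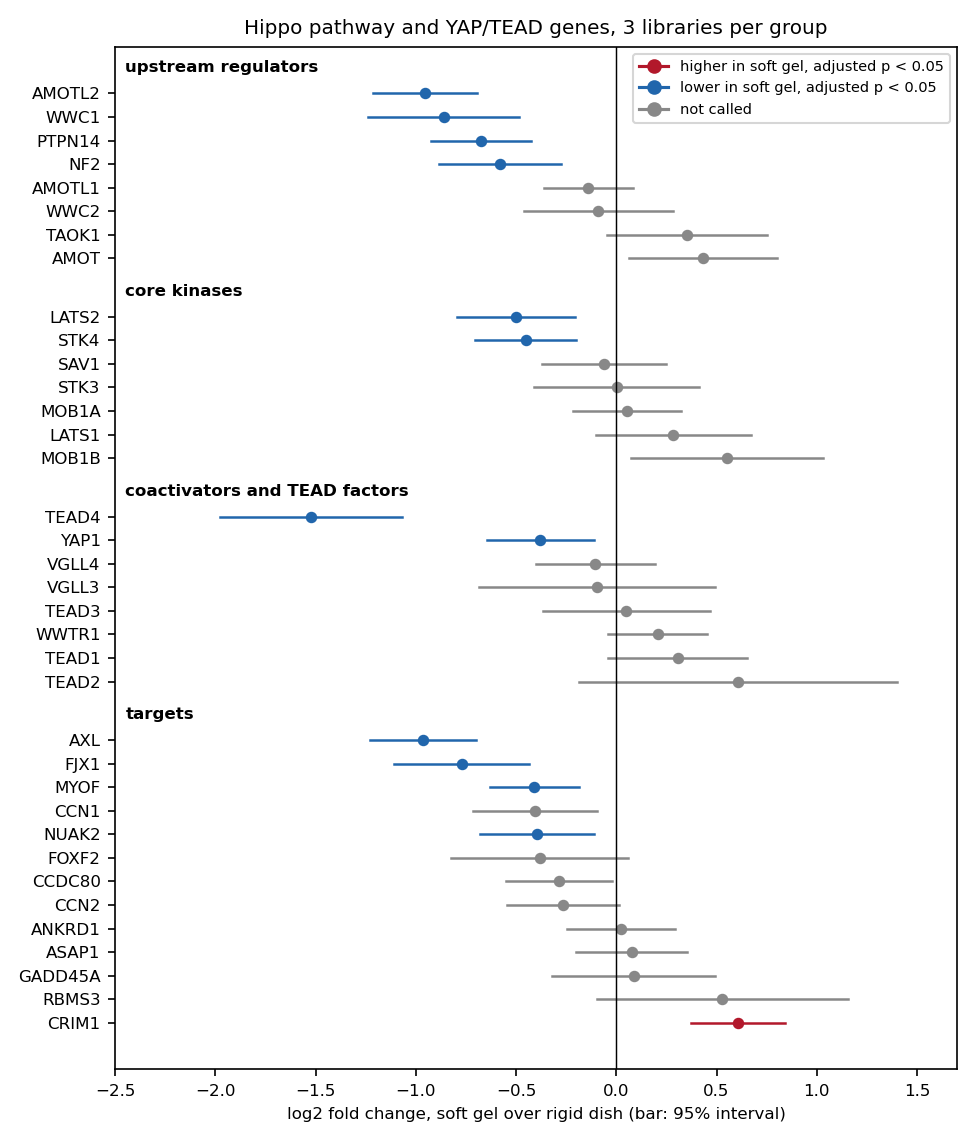
Log2 fold change of each gene (x axis, soft gel over rigid dish, bars are 95% intervals from the edgeR fit) by role in the pathway, with blue for the 12 genes called lower, red for the 1 called higher and grey for the rest. TEAD4 lies farthest to the left at -1.52, and every role holds at least 2 genes called lower.

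The count changed with the libraries included. The number called lower was 6 without soft gel 1, 7 without soft gel 2 and 7 without rigid dish 2, and 13 genes were lower and 5 higher without rigid dish 1. Lower calls over all tested genes were 864, 797 and 936 without soft gel 1, soft gel 2 and rigid dish 2, against 2123 with all libraries. Without rigid dish 1, 2925 of all tested genes were lower and 3239 higher. With limma on log2(TPM + 1), 4 were lower (TEAD4, AMOTL2, AXL and FJX1) and 1 higher (CRIM1). All 15 alternatives called these same 5 genes.

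The upstream regulators act on the kinases or bind YAP1 themselves. In soft gel 4 of the 8 were lower (50%, against 13.2% of all tested genes). On all libraries, none of the 8 was called higher by edgeR without a replicate block or by DESeq2 (1, AMOT, at an unadjusted p below 0.05). With the replicate number as a block, edgeR called AMOT (adjusted p = 0.00974) and TAOK1 (0.0225) higher. AMOTL2, an angiomotin family protein that binds YAP1, had 129, 114 and 144 CPM in soft gel, against 245, 253 and 252 CPM on the rigid dish. The groups were far apart relative to their spread, and edgeR gave an adjusted p of 0.00112 for a log2 fold change of -0.95 (SE 0.115). Its relative AMOT had 120, 118 and 106 CPM in soft gel, against 108, 75.9 and 70.9 CPM on the rigid dish. Rigid dish 1 overlapped the soft gel libraries, and AMOT was not called (log2 fold change 0.43, 95% interval 0.06 to 0.80, edgeR adjusted p = 0.0738) but was called higher without rigid dish 1 (adjusted p = 0.00312). AMOTL1, the third angiomotin, had 147, 164 and 160 CPM in soft gel, against 173 CPM in each rigid dish library (log2 fold change -0.14, edgeR adjusted p = 0.306).

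WWC1, which encodes KIBRA, a partner of merlin, had 15.8, 13.4 and 18.8 CPM in soft gel, against 33.3, 28.3 and 25.5 CPM on the rigid dish, without overlap (log2 fold change -0.86, SE 0.167, edgeR adjusted p = 0.00668). PTPN14, a phosphatase that binds YAP1, had 116, 135 and 120 CPM in soft gel, against 214, 192 and 188 CPM on the rigid dish (log2 fold change -0.68, SE 0.111, edgeR adjusted p = 0.00358). Every soft gel value of both genes lay below every rigid dish value. NF2, which encodes merlin, had 384, 333 and 392 CPM in soft gel, against 651, 496 and 507 CPM on the rigid dish (log2 fold change -0.58, SE 0.135, edgeR adjusted p = 0.0144). The highest NF2 value was that of rigid dish 1, and the call held without that library but not without soft gel 1, where the adjusted p was 0.0529, or soft gel 2, where it was 0.0712, nor with TPM values. TAOK1, a kinase that activates the MST kinases, and WWC2, a KIBRA relative, overlapped between groups, with log2 fold changes of 0.35 and -0.09 (edgeR adjusted p = 0.157 and 0.707).

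Of the 7 genes of the core cassette, LATS2 and STK4 were lower in soft gel (28.6%, against 13.2% of all tested genes). On all libraries, with the low-count filter and no replicate block, edgeR called 0 higher, as did DESeq2. In that edgeR test 1 gene, MOB1B, was higher at an unadjusted p below 0.05. LATS2 had 14.2, 14.8 and 16 CPM in soft gel, against 21.1, 22.5 and 19.9 CPM on the rigid dish (log2 fold change -0.50, SE 0.130, edgeR adjusted p = 0.0214). STK4, the MST1 kinase, had 48.7, 53.2 and 48.7 CPM in soft gel, against 73.0, 70.1 and 63.0 CPM on the rigid dish (log2 fold change -0.45, SE 0.111, edgeR adjusted p = 0.0173). The groups did not overlap for either gene. Both calls were lost without soft gel 1 or rigid dish 2 and with TPM values, and that of LATS2 also without soft gel 2.

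LATS1 had 36.3, 38.2 and 26.4 CPM in soft gel, against 31.7, 27.6 and 23.7 CPM on the rigid dish (log2 fold change 0.28, 95% interval -0.10 to 0.67, edgeR adjusted p = 0.234). STK3, the MST2 kinase, had 29.9, 25.0 and 19.1 CPM in soft gel, against 28.7, 23.3 and 21.9 CPM on the rigid dish (95% interval of the log2 fold change -0.41 to 0.42, edgeR adjusted p = 0.994). SAV1 had 12.5, 12 and 11.8 CPM in soft gel, against 13.4, 12.3 and 12.1 CPM on the rigid dish (log2 fold change -0.06, 95% interval -0.37 to 0.25, edgeR adjusted p = 0.765). In these 3 genes the groups overlapped. The LATS cofactors MOB1A and MOB1B had log2 fold changes of 0.05 and 0.55, and overlapped between groups (edgeR adjusted p = 0.768 and 0.0775). MOB1B was called higher under 4 of 15 alternatives. These were without soft gel 3 (edgeR adjusted p = 0.0246), without rigid dish 1 (0.044), with no low-count filter (0.0239) and with a replicate block (0.00405).

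At the centre of the pathway, YAP1 was lower in soft gel and WWTR1 was not called. YAP1 had 87.7, 83.6 and 82.4 CPM in soft gel, against 126, 104 and 101 CPM on the rigid dish (log2 fold change -0.38, SE 0.118, edgeR adjusted p = 0.0403). WWTR1 had 197, 196 and 172 CPM in soft gel, against 157, 177 and 157 CPM on the rigid dish (log2 fold change 0.21, 95% interval -0.04 to 0.45, edgeR adjusted p = 0.18). The YAP1 groups did not overlap, whereas soft gel 3 lay below rigid dish 2 for WWTR1. The YAP1 call was close to the threshold and was lost on leaving out soft gel 1 (adjusted p 0.105), soft gel 2 (0.124), rigid dish 1 (0.0593) or rigid dish 2 (0.0929), and with upper quartile scaling (0.062) or TPM values (0.158 and 0.156).

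TEAD4 had the lowest fold change of the 36 genes. Its values were 4.90, 3.65 and 5.77 CPM in soft gel, against 12.2, 13.8 and 15.1 CPM on the rigid dish (log2 fold change -1.52, SE 0.202, edgeR adjusted p = 0.00154). Every soft gel value was below every rigid dish value. TEAD1, the most abundant TEAD message, had 221, 248 and 180 CPM in soft gel, against 204, 172 and 149 CPM on the rigid dish (log2 fold change 0.31, 95% interval -0.04 to 0.65, edgeR adjusted p = 0.162). TEAD2 had 2.26, 1.54 and 2.49 CPM in soft gel, against 0.898, 1.90 and 1.34 CPM on the rigid dish (log2 fold change 0.61, 95% interval -0.19 to 1.40). TEAD3 had 6.09, 4.75 and 6.05 CPM in soft gel, against 5.39, 5.56 and 5.38 CPM on the rigid dish (log2 fold change 0.05, 95% interval -0.37 to 0.47). For TEAD1, TEAD2 and TEAD3 the groups overlapped, and edgeR without a replicate block made no call on all libraries. TEAD1 was called higher without rigid dish 1 (edgeR adjusted p = 0.0423) and with a replicate block (0.0412). VGLL4, which competes with YAP1 for TEAD binding, and VGLL3, another TEAD cofactor, both had log2 fold changes of -0.10 (edgeR adjusted p = 0.575 and 0.801).

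**Figure D2:**
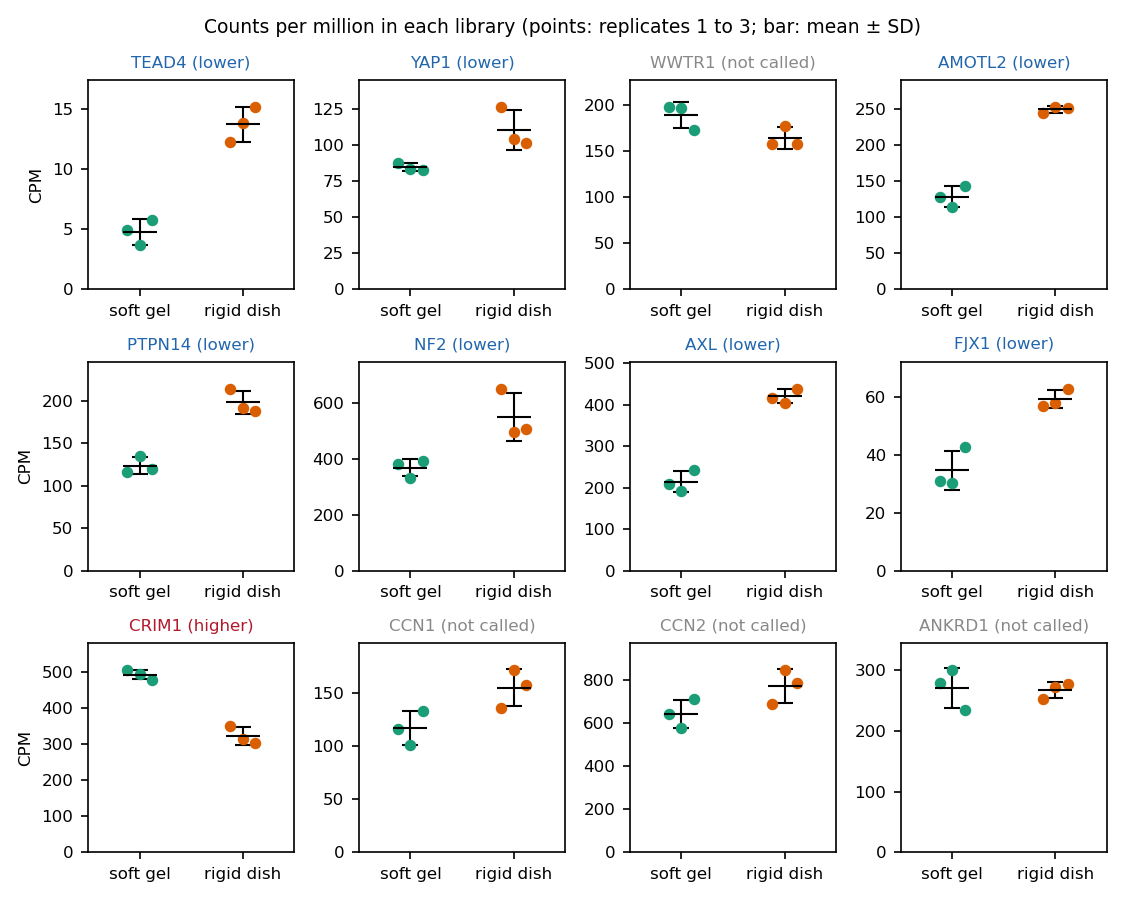
CPM (y axes, from 0) of 12 genes in each library, with soft gel left of rigid dish; points are the 3 replicates and bars the mean and SD. The groups are apart for the 8 genes called (blue and red titles), and overlap for WWTR1, CCN2 and ANKRD1, while CCN1 was apart but not called (adjusted p = 0.0532).

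Because TPM values are scaled by length, related genes could be set against each other within a library, which also removes library scaling. Summed TPM of the TEAD genes was 53.7, 57.4 and 46.4 in soft gel, against 61.4, 49.8 and 46.3 on the rigid dish. TEAD4 made up 9.37%, 6.79% and 13.1% of that sum in soft gel, against 23.1%, 27.6% and 31.5% on the rigid dish. TEAD1 made up 81.3%, 87.1% and 76.5% in soft gel, against 70.9%, 63.7% and 61.5% on the rigid dish. The family total overlapped between the groups, as did the shares of TEAD2 and TEAD3, while those of TEAD1 and TEAD4 did not. Shares of the same sum depend on each other, so the TEAD1 share is not a separate result from that of TEAD4.

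YAP1 stood at 0.342, 0.322 and 0.367 of WWTR1 in soft gel, against 0.656, 0.454 and 0.491 of it on the rigid dish. Their sum overlapped, at 108 ± 8.29 TPM in soft gel and 106 ± 12.1 TPM on the rigid dish (SD, n = 3 each). AMOTL2 exceeded AMOT 1.96, 1.89 and 2.60 times in soft gel, against 4.12, 5.86 and 6.30 times on the rigid dish. The ratio of LATS2 to LATS1 was 0.588, 0.511 and 0.717 in soft gel, against 0.843, 0.920 and 0.935 on the rigid dish. Of 10 such pairs compared, 8 did not overlap between the groups, but the pairs were chosen after seeing the data, several set a called gene against an uncalled one, and no share was computed for other gene pairs. Each of the 8 had an exact two-sided permutation p of 0.1, the smallest that 3 against 3 libraries can give (0.125 adjusted over the 10 pairs). The pairs WWC1 with WWC2 and VGLL3 with VGLL4 overlapped (exact permutation p = 0.4 and 0.9).

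**Figure D3:**
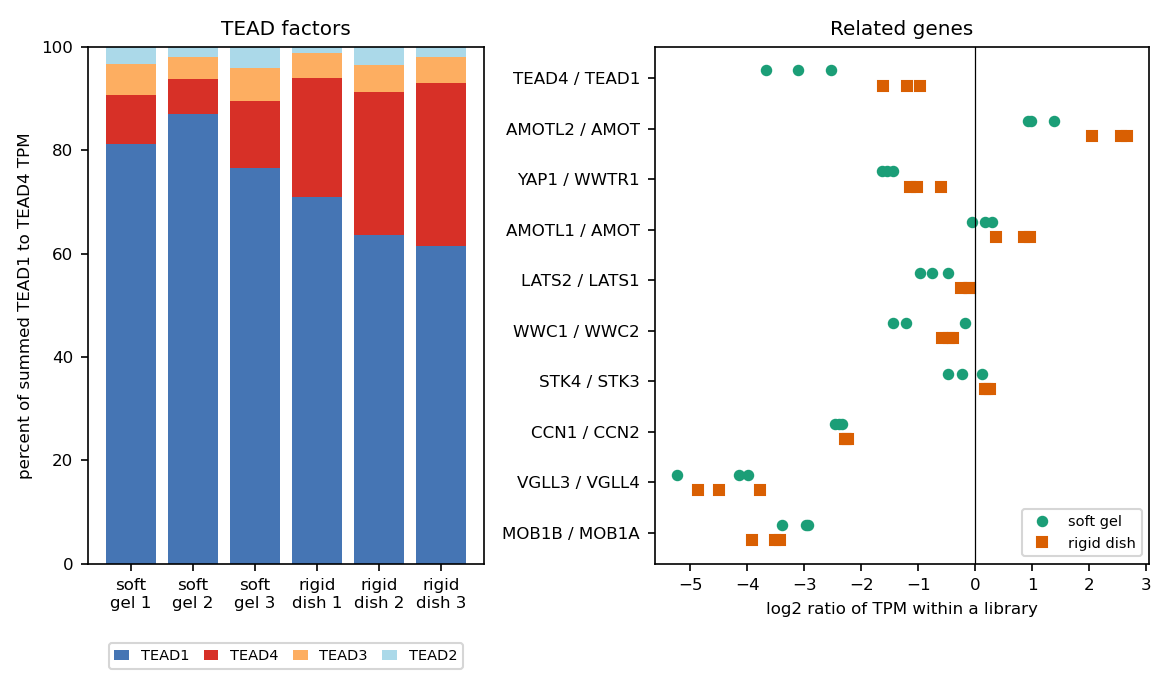
Left, share of each TEAD gene (y axis, percent of their summed TPM) in each library; right, log2 ratio of TPM between related genes within each library (x axis), circles for soft gel and squares for rigid dish. TEAD4 holds 6.79% to 13.1% of TEAD message in soft gel and 23.1% to 31.5% on the rigid dish, and 8 of the 10 ratios do not overlap between groups.

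Of the 13 target genes, 4 were lower and 1 was higher in soft gel, with a median log2 fold change of -0.28. That is 30.8% and 7.69%, against 13.2% and 15.4% of all tested genes. AXL, a receptor tyrosine kinase, had 210, 192 and 243 CPM in soft gel, against 417, 405 and 438 CPM on the rigid dish (log2 fold change -0.97, SE 0.118, edgeR adjusted p = 0.00114). FJX1, a secreted protein related to fly four-jointed, had 31.2, 30.4 and 42.7 CPM in soft gel, against 57.0, 58.2 and 63.0 CPM on the rigid dish (log2 fold change -0.77, SE 0.149, edgeR adjusted p = 0.00668). Both genes were apart between the groups. MYOF, the membrane repair protein myoferlin, had 972, 970 and 966 CPM in soft gel, against 1270, 1350 and 1240 CPM on the rigid dish (log2 fold change -0.41, SE 0.0987, edgeR adjusted p = 0.016). NUAK2, an AMPK-related kinase, had 43.1, 37.8 and 47.2 CPM in soft gel, against 51.0, 57.3 and 60 CPM on the rigid dish (log2 fold change -0.40, SE 0.126, edgeR adjusted p = 0.0435). The MYOF call was lost without soft gel 1, soft gel 2 or rigid dish 2 and with TPM values, and that of NUAK2 under these settings, without rigid dish 3 and with upper quartile scaling (adjusted p = 0.0589).

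CRIM1, a membrane protein that binds BMPs, went against the other called targets, with 506, 495 and 480 CPM in soft gel, against 352, 315 and 304 CPM on the rigid dish. It was higher in 3 of 3 soft gel libraries than in any rigid dish library (log2 fold change 0.61, SE 0.105, edgeR adjusted p = 0.00427).

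The best-known targets were not called. CCN1 had 116, 101 and 133 CPM in soft gel, against 136, 171 and 157 CPM on the rigid dish, and CCN2 had 640, 578 and 709 CPM in soft gel, against 686, 844 and 787 CPM on the rigid dish. Both encode secreted matricellular proteins. The CCN1 groups did not overlap, and the CCN2 groups overlapped through soft gel 3 and rigid dish 1. The 95% interval of the log2 fold change was -0.71 to -0.10 for CCN1 and -0.55 to 0.01 for CCN2 (edgeR adjusted p = 0.0532 and 0.132). CCN1 was called lower under 6 of 15 alternatives, DESeq2 among them (adjusted p = 0.023), and CCN2 without rigid dish 1 (adjusted p = 0.033). ANKRD1, an ankyrin repeat protein, had 279, 300 and 235 CPM in soft gel, against 252, 273 and 277 CPM on the rigid dish. Its interval ran from -0.24 to 0.29 around a log2 fold change of 0.02, whose sign changed with DESeq2 size factors (-0.02), and it was called under none of the 15 alternatives.

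The other targets were not called on all libraries. CCDC80, a matrix protein (log2 fold change -0.28, edgeR adjusted p = 0.0956), and FOXF2, a forkhead factor (-0.38, adjusted p = 0.167), had soft gel values below all rigid dish values. GADD45A, a growth arrest gene (0.09), ASAP1, an ARF GTPase-activating protein (0.08), and RBMS3, an RNA-binding protein (0.53), overlapped between the groups. RBMS3 was called higher without rigid dish 1 (adjusted p = 0.0326) and FOXF2 lower without soft gel 3 (0.0435). GADD45A was uneven on the rigid dish, with 126, 123 and 134 CPM in soft gel, against 84.4, 137 and 139 CPM on the rigid dish.

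By level per length (TPM), the most abundant of these messages were targets. CCN2 led with 419 ± 36.9 TPM in soft gel and 477 ± 36.6 TPM on the rigid dish, and MYOF followed with 228 ± 8.79 TPM in soft gel and 283 ± 39.4 TPM on the rigid dish (SD, n = 3 each). ANKRD1 reached 215 ± 30.9 TPM in soft gel and 200 ± 14.3 TPM on the rigid dish. Among the kinases STK4 and STK3 both averaged 13.8 TPM over all libraries, LATS1 6.44 TPM and LATS2 4.68 TPM. TEAD2 was the least abundant, at 1.62 ± 0.403 TPM in soft gel and 1.11 ± 0.577 TPM on the rigid dish. The summed TPM of the 13 targets was 1480, 1390 and 1430 in soft gel, against 1660, 1590 and 1420 on the rigid dish, and overlapped.

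Set side by side, core kinases and targets each held both called and uncalled genes. In the core cassette 28.6% of 7 genes were lower and the median log2 fold change was 0.00, and among the targets 30.8% of 13 were lower and the median was -0.28. LATS2, AMOTL2 and PTPN14 are themselves YAP/TEAD targets in a published pan-cancer signature. With them counted among the targets, 7 of 16 were lower and 1 higher (median -0.39). The upstream regulators had 50% lower (median -0.36) and the coactivators and TEAD factors 25.0% (median -0.02). Among all tested genes 13.2% were lower, and 17.6% of the protein-coding genes that averaged 5 CPM or more. No test was made between the small lists by role.

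Promoter sequences show which of these genes carry the TEAD core motif CATTCC near an annotated start. The alternative starts of a gene each had a window. Windows of 300 bases (250 before to 50 after the start, RefSeq, GRCh38.p14) were available for 29 of the 36 genes and were searched on both strands, with GGAATG as the reverse complement. At least 1 window held the motif in 10 of 29 genes (5 of the 9 targets among them), against 16.7% of all 27305 gene symbols. Of the genes called lower 6 of 11 held it, and of those not called 4 of 18. CCN2 and ANKRD1, which were not called, held 3 and 2 copies, so a motif did not go with a call gene by gene. The sequences below set these uncalled targets beside lower genes, each read 5′ to 3′ on the gene's strand with the motif in capitals. They lie at chr6:131951323-131951622 (CCN2, minus strand), chr10:90921038-90921337 (ANKRD1, minus), chr3:134374398-134374697 (AMOTL2, minus), chr1:214551553-214551852 (PTPN14, minus), chr1:205321696-205321995 (NUAK2, minus) and chr19:41226505-41226804 (AXL, plus, the downstream of its annotated starts).
CCN2: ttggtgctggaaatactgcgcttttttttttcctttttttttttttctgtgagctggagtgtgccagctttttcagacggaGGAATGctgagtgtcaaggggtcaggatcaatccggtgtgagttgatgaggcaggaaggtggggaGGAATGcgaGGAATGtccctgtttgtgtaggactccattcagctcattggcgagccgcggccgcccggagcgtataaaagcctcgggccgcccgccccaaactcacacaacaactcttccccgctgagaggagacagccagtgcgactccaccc
ANKRD1: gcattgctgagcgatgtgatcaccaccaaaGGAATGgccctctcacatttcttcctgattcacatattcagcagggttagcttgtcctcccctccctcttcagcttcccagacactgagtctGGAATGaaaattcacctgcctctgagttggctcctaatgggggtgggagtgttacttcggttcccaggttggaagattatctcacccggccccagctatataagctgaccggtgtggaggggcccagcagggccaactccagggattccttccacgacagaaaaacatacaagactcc
AMOTL2: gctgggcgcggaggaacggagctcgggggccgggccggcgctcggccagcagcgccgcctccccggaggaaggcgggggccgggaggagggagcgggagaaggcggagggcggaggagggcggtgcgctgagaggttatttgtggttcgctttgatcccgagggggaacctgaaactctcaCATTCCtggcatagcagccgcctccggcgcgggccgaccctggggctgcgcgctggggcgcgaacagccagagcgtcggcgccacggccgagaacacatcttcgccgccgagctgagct
PTPN14: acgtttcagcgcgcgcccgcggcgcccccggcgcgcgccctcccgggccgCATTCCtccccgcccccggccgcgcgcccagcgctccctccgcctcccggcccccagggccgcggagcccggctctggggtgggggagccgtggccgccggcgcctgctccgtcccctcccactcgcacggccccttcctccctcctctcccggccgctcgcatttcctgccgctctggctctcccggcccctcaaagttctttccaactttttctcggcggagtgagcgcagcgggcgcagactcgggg
NUAK2: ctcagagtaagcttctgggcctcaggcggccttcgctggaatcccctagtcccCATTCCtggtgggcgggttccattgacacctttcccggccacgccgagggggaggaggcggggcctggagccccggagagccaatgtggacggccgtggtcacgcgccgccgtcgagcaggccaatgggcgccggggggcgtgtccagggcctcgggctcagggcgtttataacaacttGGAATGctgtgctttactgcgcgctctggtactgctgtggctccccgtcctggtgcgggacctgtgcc
AXL: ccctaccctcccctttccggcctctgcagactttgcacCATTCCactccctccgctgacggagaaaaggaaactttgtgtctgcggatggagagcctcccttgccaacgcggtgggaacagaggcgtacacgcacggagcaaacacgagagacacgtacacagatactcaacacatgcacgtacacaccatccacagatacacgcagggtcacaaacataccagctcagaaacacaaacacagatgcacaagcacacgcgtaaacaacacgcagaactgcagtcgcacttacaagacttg

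In CCN2 the motifs began 169, 104 and 95 bases before the start, in ANKRD1 220 and 128 bases, in NUAK2 197 and 18 bases, in AMOTL2 69 bases, in PTPN14 200 bases and in AXL 212 bases before it. YAP1 and LATS2, both lower, held 1 motif each. MYOF, FJX1, NF2, STK4 and WWC1, also lower, held none in these windows, which says only that the letters are absent there.

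Genes elsewhere in the pathway were listed by role and not by how they moved, though earlier results of these data were known. Of 31 other regulators 11 were lower (35.5%) and 2 higher (6.45%), with a median log2 fold change of -0.09. Among all tested genes 13.2% were lower and 15.4% higher. AJUBA, a LIM protein that inhibits LATS, had 20.0, 18.7 and 20.8 CPM in soft gel, against 47.7, 44.4 and 50.3 CPM on the rigid dish (log2 fold change -1.26, SE 0.118, edgeR adjusted p = 0.000381). Its relatives WTIP (-0.91), LIMD1 (-0.50) and TRIP6 (-0.45) were also lower, the last pair named after their values were seen. The other regulators called lower lie outside this family and were also named after their values were seen. They were MAP4K4 (-0.71), STRN4 (-0.66), CSNK1E (-0.58), WWC3 (-0.525), RASSF1 (-0.48), LLGL1 (-0.47) and SCRIB (-0.41). STK38L, the NDR2 kinase of the LATS-related family, had 65.1, 77.3 and 49.8 CPM in soft gel, against 28.4, 23.8 and 20.4 CPM on the rigid dish (log2 fold change 1.40, SE 0.184, edgeR adjusted p = 0.00149). FAT4, a large protocadherin, was also higher (0.73, adjusted p = 0.0108). AJUBA and STK38L were each apart between the groups.

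Of 9 other cofactors tested, 7 were lower (77.8%) and 0 higher (0 also at an unadjusted p below 0.05 and with DESeq2). Among all tested genes 13.2% were lower and 15.4% higher. TP73 (log2 fold change -0.88, edgeR adjusted p = 0.0136), a p53 relative, and SMAD3 (-0.79, adjusted p = 0.0248), a TGF-beta effector, were the largest among them by rule. RUNX1 (-0.78), RUNX2 (-0.67) and the phosphoserine-binding adaptors YWHAZ (-0.58), YWHAE (-0.56) and YWHAB (-0.43), which hold phosphorylated YAP1 in the cytoplasm, were the rest, named after their values were seen. YWHAZ had 417, 395 and 421 CPM in soft gel, against 598, 652 and 590 CPM on the rigid dish. SMAD3 had 116, 102 and 134 CPM in soft gel, against 280, 175 and 154 CPM on the rigid dish, where rigid dish 1 stood highest.

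The other genes of the pan-cancer signature moved in both directions, with 3 of 6 lower and 1 higher. That is 50% and 16.7%, against 13.2% and 15.4% of all tested genes. F3, tissue factor, had 33.4, 26.4 and 40.0 CPM in soft gel, against 85.4, 73.9 and 70.4 CPM on the rigid dish (log2 fold change -1.20). NT5E, the CD73 ecto-enzyme, was lower (-0.58), as was ARHGEF17, named after its values were seen (-0.58), and DOCK5, a RAC exchange factor, was higher (0.67). Of 17 further targets tested 7 were lower (41.2%) and 2 higher (11.8%). CPA4, a carboxypeptidase (-1.26, edgeR adjusted p = 0.00335), and DLC1 (-1.11, adjusted p = 0.00223) were lower. DKK1, a secreted WNT inhibitor, had 778, 758 and 815 CPM in soft gel, against 387, 408 and 398 CPM on the rigid dish (0.98, adjusted p = 0.000517), and HBEGF, an EGF family ligand, was higher (0.52, adjusted p = 0.0362).

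**Figure D4:**
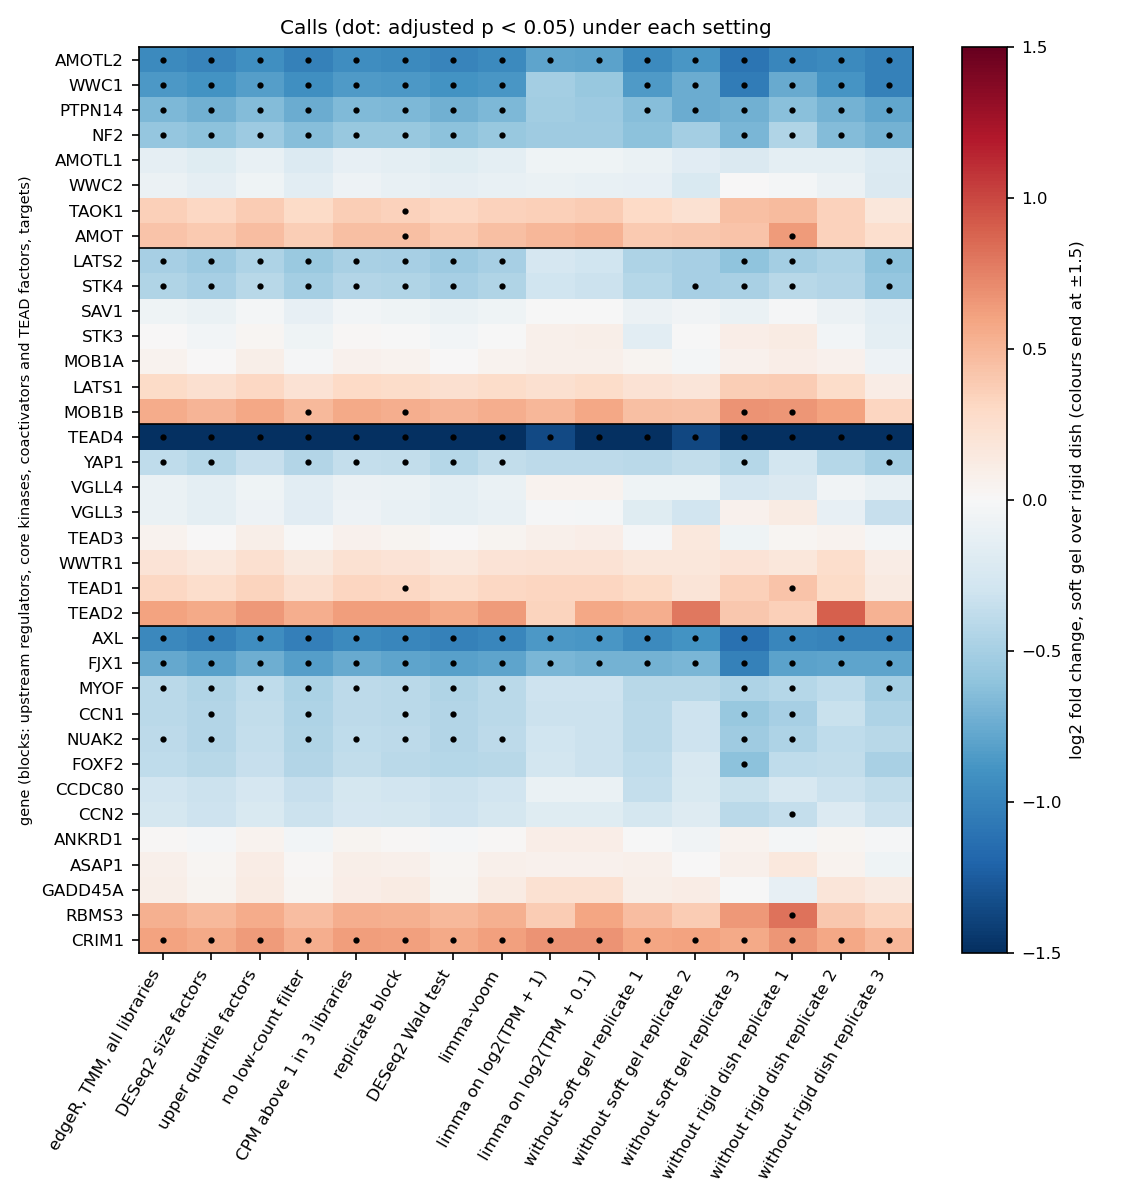
Log2 fold change (colour, soft gel over rigid dish) of the 36 genes (rows, in blocks by role) under each setting (columns); a dot marks an adjusted p below 0.05. Rows with dots in every column are AMOTL2, TEAD4, AXL, FJX1 and CRIM1, and columns that leave out soft gel 1, soft gel 2 or rigid dish 2 hold fewer dots.

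Of the 13 called genes 5 were called under every alternative, and PTPN14 and WWC1 lost their calls only with TPM values. Of the 23 uncalled genes 15 were called under none of the alternatives and 8 under at least 1. The authors' deposited table gave an adjusted p below 0.05 to 13 of the 36 genes as lower and 1 as higher (9.26% and 7.87% of the genes it tested), the added gene being CCN1 (authors' deposited table, log2 fold change -0.44, adjusted p = 0.0196). Its column of significant genes, with a rule that the sources used here do not give, marked 1 of the 36, TEAD4 (log2 fold change -1.45 in the authors' deposited table).

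Positions on hg38 (GENCODE 29) are given for the 5 genes called throughout. TEAD4 (ENSG00000197905) spans chromosome 12, 2959330 to 3040673, plus strand, and AMOTL2 (ENSG00000114019) chromosome 3, 134355874 to 134375479, minus strand. AXL (ENSG00000167601) spans chromosome 19, 41219203 to 41261766, plus strand, FJX1 (ENSG00000179431) chromosome 11, 35618419 to 35620868, plus strand, and CRIM1 (ENSG00000150938) chromosome 2, 36355926 to 36551135, plus strand. Since no strand setting is given, exons shared with genes on the other strand could add reads. VGLL4 shares 22.1% of its exon bases with ATG7, WWC2 25.9% with CLDN22 and SAV1 14.9% with ATL1, so these are uncertain. In soft gel and on the rigid dish ATG7 averaged 359 and 534 counts and ATL1 128 and 115, but CLDN22 only 3.29 and 4.42. MOB1B shares 2.26% with DCK on the same strand, which averaged 744 and 939 counts. Among the called genes AXL, AMOTL2, CRIM1, YAP1 and PTPN14 overlap other genes in at most 9.97% of exon bases, and each of those genes averaged under 2 counts in either group.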

How the data were processed

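RNA of 6 libraries was sequenced, 3 per group. Per the labels' protocols, total RNA came from TRIzol extraction and went into TruSeq libraries. HISAT2, HTSeq and hg38 are listed in the submitters' processing notes, with no role or version. The authors deposited estimated counts per gene (11.3% to 13.0% of genes per library held decimals) and TPM values, which are scaled to length. The authors' deposited comparison holds a log2 fold change, a linear fold (ratio) and p-values before and after adjustment, and its name refers to DESeq2.

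Counts were rounded, filtered with filterByExpr (minimum count 10), scaled by TMM and compared in R 4.3.3 by the quasi-likelihood test of edgeR 4.0.16 (with limma 3.58.1), with Benjamini-Hochberg adjustment over 16098 genes at a threshold of 0.05. Intervals of 95% came from the same fit. The test was checked on simulated data with the same dispersion for every gene, which need not hold in these libraries. A count of 0 allows up to 3 counts, 0.116 to 0.143 CPM, which covers counting error only. Alternatives were 2 other scalings, 2 other filters, a replicate block, each library left out in turn, DESeq2 1.42.0, limma-voom, and limma on log2(TPM + 1) and log2(TPM + 0.1). Ratios of related genes within libraries were added after seeing the data and compared by exact permutation test.

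The genes and lists were chosen with earlier results of these data known. Library values are given for every called member and for the main pathway genes. From each other list, up to 2 higher and 2 lower genes with the largest change and a mean of 5 CPM or more are named. GENCODE 29 held 99.5% of gene identifiers.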

Additional observations from a re-analysis of the deposited data

How the results depend on the processing

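Direction held for every called gene under all 15 alternatives, while many calls did not. With limma on log2(TPM + 1) and log2(TPM + 0.1), 1345 and 1327 of all genes were higher and 968 and 960 lower, and 4 of the 36 genes were lower under both. Lower counts under the 2 TPM settings were 0 and 0 core kinases, 1 and 1 upstream regulators, 1 and 1 coactivators and TEAD factors, 2 and 2 targets, 3 and 3 of the regrouped targets, 4 and 4 other regulators, and 2 and 1 other cofactors. Higher counts there were 1 and 1 for other regulators and 1 and 1 for further targets. Upper quartile scaling gave 1 coactivator or TEAD factor lower, and DESeq2 size factors 5 remaining signature targets lower. No low-count filter gave 2 of the 36 genes higher, 1 of them MOB1B of the core cassette. Fold changes near 0 changed sign without a call, in 9 genes: with no filter -0.0109 for TEAD3, -0.0632 for STK3, -0.012 for MOB1A and -0.0421 for ANKRD1. DESeq2 size factors gave -0.0434 for STK3 and -0.0219 for ANKRD1, the DESeq2 Wald test -0.0434 and -0.0218, and limma-voom -0.011 for STK3. VGLL4 was 0.049 and 0.0498 with TPM values. The cause of these changes was not tested.

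With the replicate number as a block, 5 of the 36 genes were higher, as were 4 other regulators and 4 further targets. The 5 were CRIM1, the LATS cofactor MOB1B of the core cassette, the upstream regulators AMOT and TAOK1, and TEAD1. STK3 stood at -0.00969 under this block. Over all tested genes this block gave 3499 higher and 2943 lower. Deviations of same-numbered libraries correlated at 0.2167, 0.009121 and 0.3069 over genes. Soft gel 1 and soft gel 3 each correlated best with the rigid dish library of the same number, and soft gel 2 with rigid dish 1 (0.137). These values do not settle whether equal numbers mark paired libraries.

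Leaving out 1 library, all genes ranged from 1006 to 3239 higher and 797 to 2925 lower, and the 36 genes from 1 to 5 higher and 6 to 14 lower. Higher counts ranged from 0 to 1 for the core cassette, for upstream regulators and for coactivators and TEAD factors. They ranged from 1 to 2 for targets and for regrouped targets, 1 to 4 for other regulators and 1 to 3 for further targets. Lower counts ranged from 0 to 2 for the core cassette, 1 to 2 for coactivators and TEAD factors, 2 to 6 for targets and 4 to 9 for regrouped targets. They ranged from 6 to 12 for other regulators, 4 to 7 for other cofactors, 1 to 4 for remaining signature targets and 5 to 8 for further targets. Log2 fold changes ranged from -0.0653 to 0.157 for TEAD3, -0.162 to 0.12 for STK3, -0.08 to 0.0944 for MOB1A, -0.234 to 0.0106 for WWC2, -0.34 to 0.118 for VGLL3, -0.0561 to 0.0547 for ANKRD1, -0.0608 to 0.162 for ASAP1 and -0.121 to 0.185 for GADD45A. TEAD2, at 0.898 to 2.49 CPM, had the widest interval of the 36 genes.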
